A study of Mus musculus with 94 samples.

Results

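The comparison described here is 6 Gy against control on day 3, 5 irradiated tumors set against 5 untreated ones, which were picked by treatment and day in their labels from the 94 tumors of the series. The series followed gene expression of 4T1 tumors on days 1, 3, 7, 15 and 23 after IR, with or without the NSAID indomethacin (INDO). 4T1 is a mouse mammary carcinoma line used as a model of TNBC. The cells were injected under the skin of the right hind limb of female BALB/c mice at 8 weeks of age, and mice were assigned to groups once tumors measured 100 to 200 mm3. Control tumors had no treatment, and 6 Gy tumors had 1 x-ray dose to the tumor-bearing leg with the body shielded. Neither group had INDO, and both carry the same line in the same strain. Each sample is a whole tumor, so RNA of stroma, blood and limb tissue comes with that of the carcinoma cells. Tumors carry a number within their group and no animal is named, so p values measure the spread between these tumors.

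Type I interferons are secreted when a cell senses foreign or misplaced nucleic acid. They bind the receptor IFNAR, which signals through JAK kinases to the factor ISGF3, and ISGF3 binds a DNA element named ISRE in the promoters of interferon-stimulated genes. Many of these genes encode antiviral effectors, and others encode the sensors and factors of the same pathway. IFN-gamma, made by T and NK cells, acts through its own receptor, and is best known for raising the GBP and IRG GTPases and the genes of antigen presentation.

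Total counts ranged from 44043622 to 87198570 in control tumors and from 68336710 to 109300093 in 6 Gy tumors (exact permutation test, both sides, p = 0.206). The keratin genes Krt8 and Krt18 and the epithelial gene Epcam, which mark the carcinoma cells, were at 624 to 1165 CPM (Krt8 and Krt18) and 208 to 434 CPM (Epcam) in all 10 tumors. Structural RNA (ribosomal, small nuclear, nucleolar and other small structural RNA, without mitochondrial genes) took 7.71% ± 1.64 of the counts in controls and 14.8% ± 6.26 after 6 Gy (SD, n = 5 each). The groups do not overlap in this share (exact permutation p = 0.00794, the smallest that 5 against 5 tumors allow, and 0.0317 adjusted over 4 library measures), and its part in the results below was not tested. With mitochondrial genes and structural RNA dropped before scaling, 1000 genes were higher and 952 lower. 6 Gy replicate 1 stands apart, with a structural share of 25.2% and a mitochondrial share of 4.64% against 1.91 to 2.03% in the other 6 Gy tumors. It also held the most RNA of blood and neutrophils, 166 CPM of the hemoglobin gene Hbb-bs (16.8 to 27.3 in the others) and 690 CPM of S100a9 (8.97 to 26.4). RNA of limb muscle varied in both groups, with summed levels of the 25 tested of 26 listed genes between 1517 and 18003 CPM in controls and between 222 and 13824 CPM after 6 Gy.

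Of 21814 genes tested, 789 were higher after 6 Gy (3.62%) and 894 lower (4.1%), at an adjusted p under 0.05 in an edgeR quasi-likelihood fit of all 19 tumors of day 3. Over all genes tested the log2 fold change had a median of -0.01. Groups did not overlap for 684 of the higher and 673 of the lower genes, and 251 of the higher and 433 of the lower genes changed at least 2-fold. The split of calls moved with the scaling, to 1189 higher and 862 lower with RLE size factors, 393 and 701 with housekeeping genes, and 1744 and 1355 in DESeq2. It was 340 and 406 without 6 Gy replicate 2, 450 and 554 without 6 Gy replicate 3, and 543 and 575 without 6 Gy replicate 5. Of the 14 listed housekeeping genes, 2 were themselves called lower and 0 higher, with a median log2 fold change of 0.21.

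**Figure D1:**
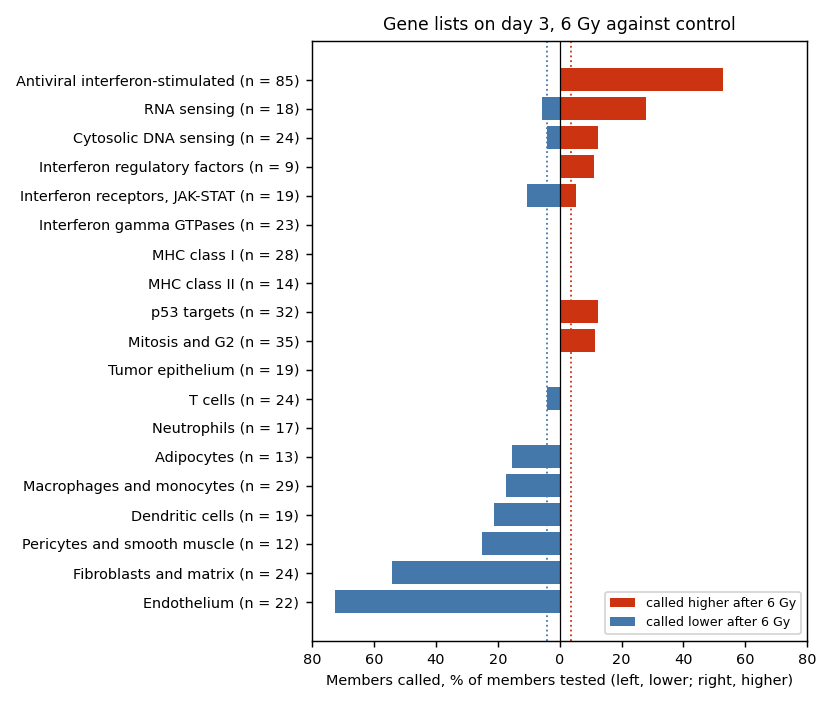
Share of the tested members of 19 gene lists called higher (right, red) or lower (left, blue) on day 3 after 6 Gy, in percent. Dotted lines mark the share over all genes tested, 3.62% higher and 4.1% lower. The lists were chosen with earlier results of these data known. The antiviral list reaches 45 of 85 on the right, and endothelium and fibroblasts reach 16 of 22 and 13 of 24 on the left.

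The promoters of the interferon wave are shown because the ISRE can be read in them. The letters searched were GAAANNGAAA, or TTTCNNTTTC on the other strand, in 250 bases before to 50 after each start site (RefSeq, GRCm38.p6). They occur in 3.44% of 32851 such windows. Among antiviral genes called higher, 33 of 45 matched a window and 19 of the 33 (57.6%) hold the letters, against 12 of 37 (32.4%) among those not called. Counted by gene, the letters stood in 3.81% of tested genes with a window, 9.07% of those called higher and 4.13% of those called lower. A match is a description of the letters and not a measured site. The stretches below are written 5′ to 3′ on the strand of the gene and end before the start site, with each match in capitals.
Ifit1, chr19:34640755-34640864, + strand: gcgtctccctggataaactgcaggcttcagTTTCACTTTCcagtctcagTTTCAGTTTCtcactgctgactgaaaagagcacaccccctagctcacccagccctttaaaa
Ifit3b, chr19:34607739-34607848, + strand: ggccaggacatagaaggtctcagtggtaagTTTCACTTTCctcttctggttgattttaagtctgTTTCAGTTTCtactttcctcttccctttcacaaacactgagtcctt
Rsad2, chr12:26456493-26456602, - strand: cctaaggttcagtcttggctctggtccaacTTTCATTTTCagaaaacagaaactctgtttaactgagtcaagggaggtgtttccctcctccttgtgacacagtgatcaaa
Ddx60, chr8:61928004-61928086, + strand: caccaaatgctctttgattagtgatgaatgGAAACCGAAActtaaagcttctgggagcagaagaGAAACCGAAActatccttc
Gbp2, chr3:142620574-142620662, + strand: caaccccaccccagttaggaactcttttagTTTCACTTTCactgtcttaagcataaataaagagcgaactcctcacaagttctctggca

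The first 4 belong to genes that rose on day 3, with 2, 2, 1 and 2 matches. The window of Ifit3 at chr19:34583343-34583452 is the same as that of Ifit3b over all 110 bases, with 0 differences. These genes are close copies, and so are members of the Oas1 and Apol9 families, so the share of reads between copies is uncertain. Gbp2, an interferon gamma-inducible GTPase whose level did not pass the test, is shown beside them because its promoter also holds a match. In its list the letters stood in 12 of 13 matched promoters, and 0 of 23 genes tested were called.

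The interferon wave was a rise of antiviral effectors. Of 85 listed antiviral interferon-stimulated genes, 45 rose and 0 fell, with a median log2 fold change of 0.76 over the list. This list, like the other lists below, was chosen with earlier results of these data known, so its count is a description. In 41 of the 45 the groups did not overlap, beside 684 of the 789 genes called higher over all genes tested. The count was 29 without 6 Gy replicate 2 and 30 to 46 in the other fits that left out a tumor. In order of level, the sum over the list was 3724, 5601, 5944, 6329 and 7126 CPM in controls and 7681, 8705, 9080, 9453 and 11111 CPM after 6 Gy. All 5 irradiated tumors lay above all controls, and control replicate 4 was the lowest of the 10.

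Ifit1 encodes a protein that binds viral RNA lacking the cap of host mRNA. It measured 46.3, 38.4, 38.1, 21.5 and 33.6 CPM in control replicates 1 to 5 and 116, 134, 119, 105 and 128 CPM in 6 Gy replicates 1 to 5. The groups are far apart and even the lowest irradiated tumor held more than any control (log2 fold change 1.76, SE 0.26, edgeR adjusted p = 0.00088). Its neighbor Ifit3b was at 17.2, 13.3, 11.8, 5.94 and 9.59 CPM in controls and 54.2, 55.5, 50.9, 41.1 and 52.8 CPM after 6 Gy (2.14, SE 0.32, 0.00098). Ifit3b had the largest rise of all genes called without overlap whose log2 CPM averaged 1 or more. Ifit3 (1.80), Ifit1bl2 (1.72) and Ifit2 (1.08) of the same cluster on chromosome 19 rose too, and the call of Ifit2 was lost in 7 of 10 fits that left out a tumor.

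Rsad2 encodes viperin, an enzyme that makes a chain-terminating nucleotide, and Cmpk2 beside it on chromosome 12 encodes a nucleotide kinase. Rsad2 was at 30.7, 35.4, 21.9, 14.1 and 17.6 CPM in controls and 187, 80.3, 90.8, 55.9 and 91.5 CPM after 6 Gy (2.08, SE 0.33, adjusted p = 0.0015). The level of 6 Gy replicate 1 was far above the other 4, which still exceeded every control. Cmpk2 rose from 18.6 ± 7.18 to 62.5 ± 9.18 CPM (1.75, SE 0.29, 0.0019). Oasl1, which restrains translation of Irf7 mRNA, was at 20.1, 24, 20.7, 11.9 and 20.9 CPM in controls and 74.1, 64.2, 78.2, 68.3 and 87.1 CPM after 6 Gy. It had the smallest p of the list (1.93, SE 0.22, 0.00018).

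Mx1, a gene of the Mx family of GTPases, was at 9.45 to 13.7 CPM in controls and 24 to 33.1 after 6 Gy (1.34, SE 0.25, adjusted p = 0.0042). Ifi44 rose from 100.1 ± 36.0 to 314 ± 45.1 CPM (1.65, SE 0.29, 0.0027). Ifi27l2a went from 18.9 ± 4.35 to 64.8 ± 30.2 CPM (1.78, SE 0.32, 0.003), with 117 CPM in 6 Gy replicate 1. Samd9l, which halts protein synthesis in infected cells, rose by 1.03 (SE 0.14, 0.00061). Trim30a, Ly6e and Lgals9, the last of them the gene of galectin-9, rose by 1.05, 0.86 and 0.84 (adjusted p = 0.015, 0.018 and 0.006). None of these groups overlapped.

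**Figure D2:**
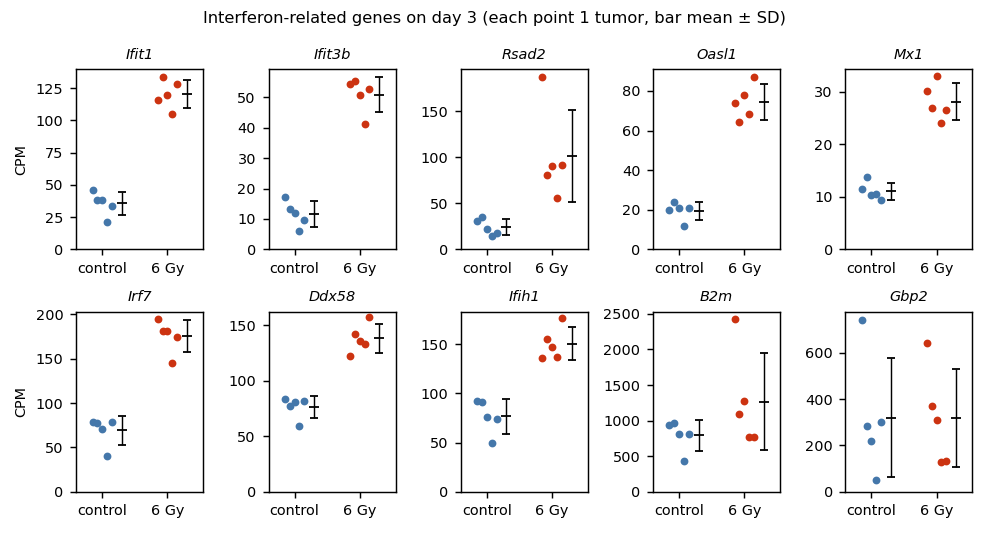
Levels of 10 interferon-related genes in CPM (counts scaled to a common library size with TMM) in the 5 control and 5 6 Gy tumors of day 3. Points are tumors, and the bar is the mean ± SD. The groups are apart for the first 8 genes, and overlap for B2m and Gbp2.

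Sensors of nucleic acid rose in part. Of 18 RNA sensing genes 5 rose and 1 fell, and the 5 became 3 with housekeeping scaling, without a filter on low counts, or without any 1 of 6 Gy replicates 2, 3 and 5 and control replicates 3 and 4. Of the 5, Ddx60, Ifih1 and Dhx58 are also on the antiviral list and counted in its 45. Ddx58, the gene of RIG-I, was at 83.4, 77.6, 81.2, 59.1 and 81.4 CPM in controls and 122, 142, 136, 133 and 157 CPM after 6 Gy (0.85, SE 0.13, adjusted p = 0.0013). Ifih1, the gene of MDA5, rose from 76.5 ± 17.5 to 150.4 ± 16.5 CPM (0.97, SE 0.20, 0.0072). Ddx60, a helicase that aids RIG-I, rose from 83.8 ± 26.1 to 249 ± 22.6 CPM (1.57, SE 0.23, 0.00087). Dhx58 and Eif2ak2, the genes of LGP2 and PKR, rose by 0.72 and 0.60 (0.034 and 0.042), and lost the call with housekeeping scaling. Unc93b1, which carries endosomal Toll-like receptors to their place, fell by 1.04 on the log2 scale (SE 0.23, 0.013).

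Of 24 genes of cytosolic DNA sensing 3 rose and 1 fell, beside 3.62% higher and 4.1% lower over all genes tested. Ifi203, Mndal and Ifi211, members of a family of DNA-binding proteins, were the risers (0.71, 0.67 and 0.52; adjusted p = 0.018, 0.039 and 0.045), of which Mndal and Ifi211 were not called with housekeeping scaling. Sting1, the adaptor of the DNA sensor cGAS, fell. It was at 42.9, 50.3, 49.8, 37.5 and 46.7 CPM in controls and 30.8, 28.4, 33.2, 29.4 and 26.4 CPM after 6 Gy, with no overlap (-0.62, SE 0.15, 0.022; not called without 6 Gy replicate 2). Cgas was at 12.0 to 17.2 CPM in controls and 13 to 20.6 CPM after 6 Gy (-0.03, SE 0.18, 0.94).

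Reads of the interferons themselves were few. Of 21 listed ligands 3 passed the filter on low counts and 0 were called (1 at an unadjusted p under 0.05 and 1 in DESeq2). Ifnb1, the gene of IFN-beta, did not pass, with counts of 1, 2, 6, 1 and 3 in controls and 6, 8, 7, 5 and 13 after 6 Gy. Ifna13 had 5, 0, 4, 1 and 3 counts in controls and 9, 7, 20, 20 and 13 after 6 Gy. These counts are not scaled to depth, and total counts were higher in most 6 Gy tumors. Ifng was at 0.142 to 1.68 CPM in controls and 0.0274 to 1.53 CPM after 6 Gy (-0.90, SE 0.99, adjusted p = 0.62).

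Of the receptor and signaling genes, 1 of 19 rose and 2 fell, beside 3.62% higher and 4.1% lower over all genes tested. Usp18, which binds IFNAR2 and removes ISG15, is induced by the pathway it dampens, and is also on the antiviral list. It was at 43.3, 46.6, 37.9, 20.9 and 42.7 CPM in controls and 110, 118, 110, 87.7 and 132 CPM after 6 Gy (1.54, SE 0.22, adjusted p = 0.00079). Ifnar2 and Il10rb, which encode receptor chains, fell by 0.46 each (0.033 and 0.03), and the call of Ifnar2 was lost in 7 of 10 fits that left out a tumor. Ifnar1 gave -0.29 (SE 0.10, 0.084). Irf7, the factor that amplifies type I interferon, was the 1 interferon regulatory factor of 9 that rose. It measured 78.9, 77.1, 71.3, 39.9 and 78.7 CPM in controls and 195, 181, 182, 145 and 174 CPM after 6 Gy (1.34, SE 0.20, 0.0009). Irf3, its constitutive counterpart, gave -0.45 (SE 0.15, 0.075).

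Genes best known for IFN-gamma did not pass the test. Of 23 GTPases, 28 MHC class I presentation genes and 14 MHC class II genes, 0 were called in edgeR or DESeq2, with list medians of 0.21, 0.17 and -0.42. At an unadjusted p under 0.05 the counts were 0, 2 and 0. Gbp2 was at 742, 284, 220, 52.3 and 302 CPM in controls and 642, 370, 310, 128 and 135 CPM after 6 Gy (-0.01, SE 0.63, adjusted p = 0.99). The spread within each group was wide, and the sign of this difference turned with RLE size factors and DESeq2 (0.01 in both). B2m, the light chain of MHC class I, was at 428 to 970 CPM in controls and 769 to 2429 CPM after 6 Gy (0.68, SE 0.31, 0.19). Cd274, the gene of PD-L1, was at 15.5 to 110 CPM and 17.1 to 169 CPM (0.25, SE 0.64, 0.86), and the highest values were those of 6 Gy replicate 1 and control replicate 1. Whether the antiviral genes changed more than these lists was not tested.

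By day, antiviral genes were called higher on day 3 alone. In the fit of each day, the list went from 0 genes higher and 7 lower at day 1 to 45 and 0 at day 3 and 0 and 14 at day 7. The counts were 0 and 0 at days 15 and 23, where controls number 3 and edgeR called no gene of the table. Over all genes tested, 9.43% were lower and 6.15% higher at day 1, and 10.3% and 5.69% at day 7. At an unadjusted p under 0.05, 1, 1, 0 and 1 of its genes were higher on days 1, 7, 15 and 23, and DESeq2 called 0 higher on each of these days. Ifit1 after 6 Gy averaged 40 ± 5.07 CPM at day 1, 121 ± 11 at day 3, 46.0 ± 10.9 at day 7, 36.2 ± 11.6 at day 15 and 22.2 ± 8.53 at day 23. Controls were at 48.8 ± 16.1, 35.6 ± 9.07, 44.4 ± 6.67, 40.2 ± 11.3 and 25.1 ± 6.25 CPM on the same days. Oasl1 and Irf7 ran alike, from 24.1 and 77.7 CPM on day 1 to 74.4 and 176 CPM on day 3 and 31.1 and 81.2 CPM on day 7.

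The difference between days was tested in 1 fit of 29 tumors, the controls and 6 Gy tumors of days 1, 3 and 7. Of 22788 genes, the change after 6 Gy was higher on day 3 than on day 1 for 37 (0.162%) and lower for 2 (0.00878%). Of the 39, 16 were on the antiviral list, led by Oasl1 (difference of log2 fold changes 2.21, SE 0.22, adjusted p = 2.5e-06), Ifit1 (2.06, SE 0.27, 0.00055) and Ifit3b (2.60, SE 0.37, 0.0011). Rsad2, Cmpk2, Mx1, Irf7, Usp18 and Ddx58 differed as well (2.56, 2.30, 1.57, 1.68, 1.67 and 0.80). Without control replicate 3 or 4 of day 1 the 16 became 8, without 6 Gy replicate 5 of day 3 they became 9, and without control replicate 3 or 5 of day 3 they became 10.

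Against day 7, the change was higher on day 3 for 40 genes (0.176%) and lower for 0 (0%). At an unadjusted p under 0.05, 633 genes were lower, and DESeq2 called 120 higher and 9 lower. Of the 40, 19 were on the antiviral list, among them Oasl1 (1.53, SE 0.21, adjusted p = 0.0018), Ifit1 (1.71, SE 0.27, 0.0044) and Mx1 (1.64, SE 0.25, 0.0044). With housekeeping scaling the 40 became 1 and the 19 became 1. The 19 became 6 to 12 without any 1 of 12 tumors, which were 6 Gy replicates 1, 2, 3 and 5 and control replicates 3, 4 and 5 of day 3, and 6 Gy replicates 2, 3 and 4 and control replicates 1 and 4 of day 7. The 40 also included genes that were lower on day 3 and lower still on day 7: Sfrp2, a secreted Wnt antagonist of fibroblasts (-2.24 on day 3, difference 3.29), and Pdgfrb, the receptor of pericytes and fibroblasts (-0.75 and 0.76).

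**Figure D3:**
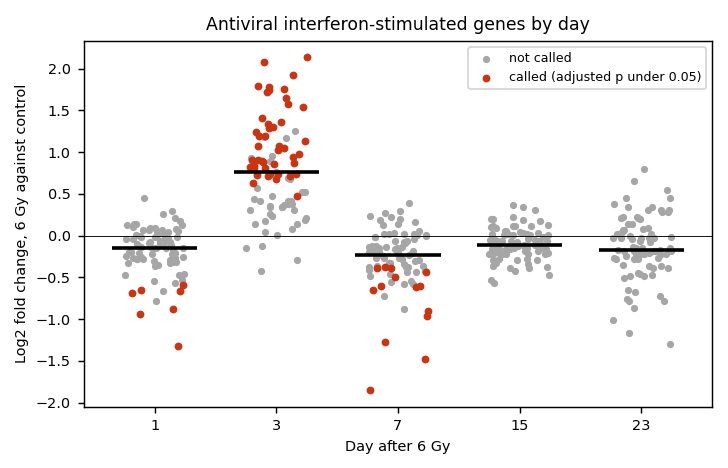
Log2 fold change of each of 85 antiviral interferon-stimulated genes, 6 Gy against control, on each day after IR. Points are genes (red, adjusted p under 0.05), and the line is the median, which is 0.76 on day 3 and -0.24 to -0.11 on the other days.

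Tumors given INDO on day 3 give the same genes in other samples. Ifit3b was at 38.4 to 66.2 CPM in the 4 tumors given 6 Gy + INDO, near the 41.1 to 55.5 CPM after 6 Gy alone. In the 5 tumors given INDO alone it was at 8.89 to 33.0 CPM, against 5.94 to 17.2 CPM in controls. Mx1 was at 18.6 to 40.5 CPM with both treatments and 7.95 to 24.6 CPM with INDO. Summed over the antiviral list, scaled over all 94 tumors, INDO alone gave 6613 to 9842 CPM (mean 8088), controls 3706 to 7129 CPM (mean 5698), 6 Gy 7577 to 11056 CPM (mean 9141) and 6 Gy + INDO 6738 to 9795 CPM (mean 8472). The sums with INDO alone thus overlap those of each of the other groups, and INDO against control was not tested here. Of the 4 tumors given both, 3 held 554 to 1604 CPM of olfactory and vomeronasal receptor reads, against 43.8 to 130 CPM in the other tumors of day 3. These groups enter the shared estimate of spread, and with the 10 compared tumors alone 1296 genes were higher and 1488 lower, with 49 of the antiviral list higher.

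Beside the interferon wave rose gene families of the early embryo. Zscan4, Usp17l, Tdpoz, Tcstv and Spopfm genes, with Zfp352, are transcribed in the embryo at the 2-cell stage and in the rare stem cells that resemble it. The factor DUX activates them there. This group was put together after its values were seen, because it led the genes with large changes, so its count is a description and not a test. Of 30 such genes in the table, 10 did not pass the filter on low counts. Of the 20 that did, 19 were higher (17 to 19 in fits without 1 tumor, 15 with the 10 compared tumors alone) and 0 lower. Some had almost no reads in controls, with rounded counts summed over the group of 5 for Usp17lc and 6 for Tdpoz9. Such genes pass the filter through the irradiated tumors, so the share called of those tested does not stand apart from the rise. Without the filter 21 genes of the families were called higher. Of 126 genes that rose at least 4-fold, 19 belong to these families, 67 have a Gm symbol (predicted genes), 2 are on the antiviral list, and 124 have a mean log2 CPM under 1.

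All levels of these families were low. Their summed counts were 34, 124 and 127 at the lowest, median and highest of the 5 controls and 710, 952 and 2349 after 6 Gy. In CPM scaled over all 94 tumors this is 0.689, 1.48 and 2.23 in controls and 10.8, 13.9 and 23.6 after 6 Gy. No irradiated tumor came near a control. 6 Gy replicate 5, the deepest library, was the highest.

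Usp17la, which encodes a deubiquitinase, was at 0.358, 0.256, 0.143, 0.0611 and 0.128 CPM in controls and 1.87, 1.23, 1.57, 1.50 and 1.53 CPM after 6 Gy (log2 fold change 3.01, SE 0.49, adjusted p = 0.0016). Usp17lc had 1, 1, 2.3, 0 and 1.4 expected counts in controls and 21.8, 44.5, 37.0, 53.5 and 105.4 after 6 Gy. Zscan4b, of a family that extends telomeres in stem cells, had 2.3, 0, 5.4, 0 and 0.3 expected counts in controls and 29.5, 24, 36.4, 31.9 and 64.3 after 6 Gy. Tcstv1 had 9, 5, 6, 0 and 5 in controls and 52.0, 66.6, 52.7, 73.5 and 182.5 after 6 Gy. The fitted log2 fold changes of these 3 genes, 5.32, 4.47 and 3.86, depend on the prior count that edgeR adds. These families hold near-identical copies, so values of single members are uncertain. Duxf3, the mouse gene of DUX, had a log2 fold change of 1.86 (SE 0.77, adjusted p = 0.15), with summed counts of 21 in controls and 89 after 6 Gy.

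By day, the families had 0 of 11 tested genes called at day 1, 19 of 20 at day 3, 15 of 16 at day 7 and 0 of 4 at day 23. The genes tested on each day are those that passed the filter in its tumors, so these shares cannot be compared between days. Their summed CPM after 6 Gy was 3.01 to 5.34 at day 1, 3.79 to 16.6 at day 7, 0.254 to 0.572 at day 15 and 0.158 to 1.26 at day 23. Controls were at 2.31 to 3.85, 0.195 to 0.815, 0.515 to 5.26 and 0.0418 to 0.234 CPM on these days. The change of Usp17lc, Usp17lb and Usp17la was higher on day 3 than on day 1 (6.41, 3.91 and 2.66; adjusted p = 0.0018, 0.014 and 0.014), and 0 of 24 tested genes of the families differed between days 3 and 7. In the groups given INDO, the sum on day 3 was 8.81 to 25.9 CPM in the 4 tumors given 6 Gy + INDO and 0.524 to 2.83 CPM in the 5 given INDO. On day 7 it was 1.35 to 10.5 CPM and 0.186 to 1.24 CPM in these groups.

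**Figure D4:**
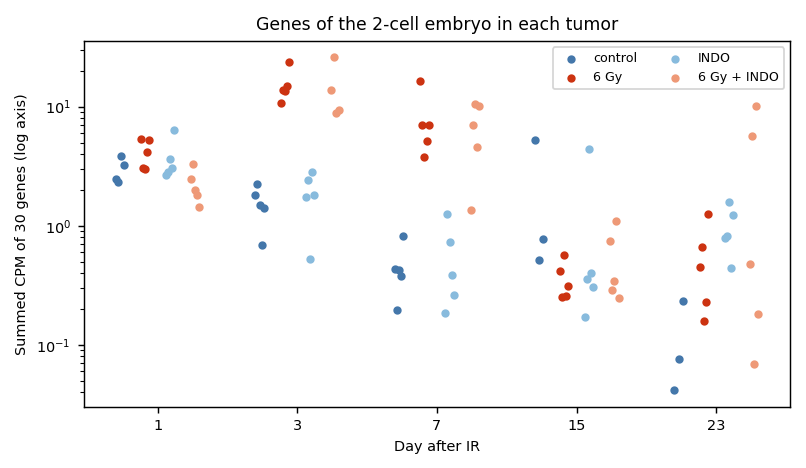
Summed level of 30 genes of 2-cell stage families in each tumor, in CPM on a log axis, by treatment and day after IR. On day 3 the 6 Gy tumors lie between 10.8 and 23.6 CPM and those given 6 Gy + INDO between 8.81 and 25.9 CPM, above all tumors without IR.

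Other rises were smaller. Of 32 p53 target genes 4 rose and 0 fell. At an unadjusted p under 0.05, 13 were higher and 3 lower, and DESeq2 called 10 higher and 0 lower. Ddb2, which recognizes damaged DNA, was at 11.8 to 13.7 CPM in controls and 17.2 to 20 CPM after 6 Gy (0.56, SE 0.11, adjusted p = 0.0049). Pvt1, Rps27l and Eda2r rose by 0.52, 0.84 and 1.07 (0.014, 0.028 and 0.03). Ddb2, Pvt1 and Eda2r lost the call with housekeeping scaling, and Rps27l and Eda2r lost it in 5 and 6 of 10 fits without 1 tumor. Cdkn1a, the cell cycle inhibitor p21, was at 23.6 to 30.9 CPM and 32.5 to 51.2 CPM, without overlap (0.44, SE 0.17, 0.12), and Mdm2 gave 0.20 (SE 0.11, 0.26).

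Of 35 genes of mitosis and G2, 4 rose and 0 fell, and 34 of the 35 had a positive log2 fold change (median 0.37). At an unadjusted p under 0.05, 18 were higher and 0 lower, and DESeq2 called 14 higher. The cyclin Ccnb1 went from 59.5, 74.0, 75.0, 66.1 and 83.0 CPM in controls to 99.7, 105, 120, 110 and 143 CPM after 6 Gy (0.69, SE 0.20, adjusted p = 0.037). Knl1 and Cenpa of the kinetochore rose by 0.65 and 0.39 (0.028 each), and Ccnb2 by 0.63 (0.045). All 4 lost the call with housekeeping scaling, which moved the median of all genes to -0.09, and in 4 to 7 of 10 fits without 1 tumor. Of 34 DNA replication genes 0 were called (7 higher at an unadjusted p under 0.05, and 2 in DESeq2). Atr, a kinase of the replication checkpoint, rose by 0.47 (0.022), and Slx4, a nuclease scaffold, fell by 0.46 on the log2 scale (0.013), and both lost the call with that scaling.

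Among 376 tested genes with a Zfp symbol, mostly zinc finger factors, 39 rose and 12 fell. Of 82 tested respiratory chain subunit genes 9 rose and 1 fell, and of 98 ribosomal protein genes 5 rose and 2 fell. These 3 families were chosen after their values were seen, and over all genes tested 3.62% rose and 4.1% fell. Rps27l, counted above as a p53 target, is 1 of the 5 ribosomal protein genes that rose. Outside the lists, the mucin Muc16 was at 0.560 to 1.72 CPM in controls and 2.00 to 3.81 CPM after 6 Gy (1.80, SE 0.47, adjusted p = 0.026), and Phex, an endopeptidase gene of bone, rose by 1.57 (0.026). The call of Muc16 was lost in 7 and that of Phex in 4 of 10 fits without 1 tumor. Scarna10, a small Cajal body RNA and thus part of structural RNA, went from 120 to 154 CPM in controls to 191 to 1466 CPM after 6 Gy (1.91, SE 0.56, 0.043), with the highest value in 6 Gy replicate 1, and its call was lost in 8 of those fits. AC147806.2 and 1700016C15Rik, 2 genes of unknown role, rose by 1.61 and 1.58 (0.0089 and 0.0072). Vtcn1, an inhibitory ligand of the B7 family, rose from 0.335 to 0.936 CPM to 0.958 to 2.06 CPM (1.27, SE 0.29, 0.014), and was not called with housekeeping scaling or with all 94 tumors in 1 fit. Its list of 26 immunosuppressive mediators and checkpoints went both ways, with 2 higher (Lgals9 and Vtcn1) and 2 lower (Vsir and Il4ra). Vsir gave -0.74 to -0.60 over the alternatives and kept its call, while Il4ra lost it in 7 of 10 fits without 1 tumor. Nr1d2 of the circadian clock rose by 0.60 (0.024; not called with housekeeping scaling or without 6 Gy replicate 2), while Npas2 of the clock fell by 1.41 on the log2 scale (0.0033). Il18 rose by 0.62 (0.037), and the granzyme gene Gzmd by 1.67 (0.049) from groups that overlap, and both calls were lost in at least 5 of the fits without 1 tumor.

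Among lists, endothelium had the largest share of genes that fell. Of 22 endothelial genes 16 fell and 0 rose, with a median log2 fold change of -1.07, and the groups did not overlap for any of the 16. The count was 15 to 17 over the 18 alternatives tried. In bulk tumors, fewer endothelial cells and less RNA per cell cannot be told apart. The summed level of the list was 533 to 687 CPM in controls and 290 to 364 CPM after 6 Gy, and the defining markers Pecam1 and Cdh5 were detected in all tumors. Scaled over the whole series, the sum was 300 to 397 CPM (mean 349) in day 3 tumors given INDO alone, which had no IR. On that scale controls held 528 to 684 CPM (mean 596) and 6 Gy tumors 289 to 359 CPM (mean 329). The tumors given INDO alone thus lay below every control and overlapped the 6 Gy tumors. For this list, INDO against control was not tested.

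Plvap, which forms the diaphragms of capillary pores, was at 40, 34.4, 33.2, 34.1 and 31.2 CPM in controls and 12.6, 11.1, 16.9, 12.2 and 14.0 CPM after 6 Gy (-1.37, SE 0.18, adjusted p = 0.00051). Cdh5, the cadherin of endothelial junctions, was at 62.2, 51.9, 63.6, 76.3 and 59.5 CPM in controls and 15.7, 24, 31.5, 33.2 and 29.6 CPM after 6 Gy (-1.23, SE 0.21, 0.0024). Every irradiated tumor lay well below every control for both. The angiopoietin co-receptor Tie1 fell by 1.50 (0.00098), the endothelial factors Erg and Sox18 by 1.21 and 1.92 (0.0013 and 0.0024), and the apelin receptor Aplnr by 2.28 (0.0022), all on the log2 scale. On days 1 and 7, 17 and 18 of the 22 were lower, and 0 on days 15 and 23 (2 and 10 at an unadjusted p under 0.05, 0 and 0 in DESeq2).

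Fibroblast and matrix genes came next, with 13 of 24 lower and 0 higher and a median of -0.82. The count was 8 with all 94 tumors in 1 fit and 9 to 14 in fits without 1 tumor. Pdgfrb was at 78.0, 77.8, 86.2, 79.5 and 87.2 CPM in controls and 44.2, 49.5, 49.8, 51.3 and 48.8 CPM after 6 Gy (-0.75, SE 0.12, adjusted p = 0.0018), a small change with a very narrow spread. Col14a1, a fibril-associated collagen, was at 89.6, 91.4, 90.2, 157 and 39.9 CPM in controls and 12.3, 12.9, 24.5, 38.9 and 21.4 CPM after 6 Gy (-2.09, SE 0.42, 0.0069). Col6a2 and the crosslinking enzyme Loxl1 fell by 0.95 and 1.03 on the log2 scale (0.0089 and 0.0026). Pi16, of adventitial fibroblasts, fell by 2.18 (0.0025), and Thy1 by 0.58 (0.0057). Over all 41 tested collagen genes, a family chosen after its values were seen, 11 fell and 0 rose. Of 12 listed pericyte and smooth muscle genes 3 fell, with Rgs5 going from 87.2 to 30.2 CPM on average (-1.53, SE 0.35, 0.014). Myh11 and Notch3 fell by 1.28 and 0.85 on the log2 scale, with calls lost in 4 and 7 of 10 fits without 1 tumor.

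Genes outside the cell type lists made up most of the 15 largest falls. Among 41 chemokine and inflammatory cytokine genes 2 fell and 1 rose, with a median of 0.03. These counts are near the shares over all genes tested, 4.1% lower and 3.62% higher. Cxcl12, the chemokine that binds CXCR4, was at 65.1, 56.2, 41.1, 37.5 and 18.1 CPM in controls and 9.58, 3.79, 8.28, 8.15 and 8.39 CPM after 6 Gy (-2.51, SE 0.64, adjusted p = 0.024). Control replicate 5 was the lowest control in this gene and in the next 7 named, and it lay above every irradiated tumor in each of them. The growth factor Igf1 went from 14.6 to 62.3 CPM in controls to 4.12 to 12.1 CPM after 6 Gy (-2.46, SE 0.52, 0.0086). Ptx3, Serpina3n, Adamts15, Ccn3 and the adhesion receptor Adgrd1 fell by 2.87, 2.80, 3.00, 2.48 and 2.45 on the log2 scale. The collagen gene Col6a5, Zxda, the carbonic anhydrase gene Car4, Rnase2a and the small RNA gene Rny3 fell by 4.07, 3.75, 3.43, 3.32 and 2.67 (adjusted p = 0.021, 0.022, 0.0093, 0.018 and 0.019), and all but Car4 lost the call in 1 or 2 of 10 fits without 1 tumor. Ccl11, the eotaxin gene, fell by 1.80 (0.037), but the call was lost in 9 of 10 fits without 1 tumor, and that of Cxcl12 in 4.

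**Figure D5:**
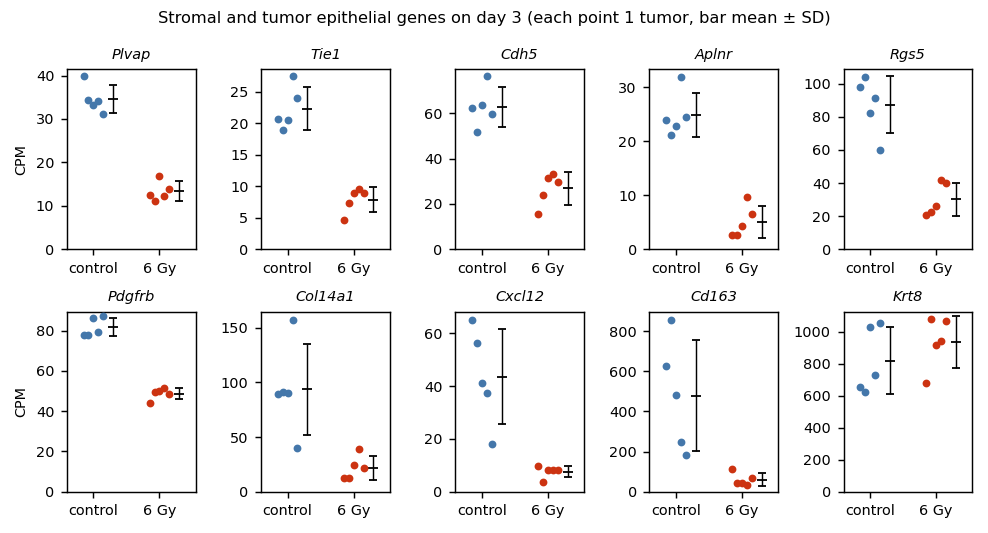
Levels in CPM of 9 genes that fell and of the keratin gene Krt8 in the 5 control and 5 6 Gy tumors of day 3. Points are tumors, and the bar is the mean ± SD. Groups are apart for the first 9 genes and overlap for Krt8.

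Myeloid genes fell in part. Of 29 macrophage and monocyte genes 5 fell and 0 rose (median -0.52), a count of 2 or 3 without any 1 of 6 Gy replicates 2 to 5 or control replicates 1 to 4, 8 with all 94 tumors in 1 fit, and 9 in DESeq2 or with the 10 compared tumors alone. Cd163, a scavenger receptor of tissue macrophages, was at 626, 855, 481, 248 and 181 CPM in controls and 113, 44.6, 42.0, 31.8 and 69.3 CPM after 6 Gy (-2.99, SE 0.83, adjusted p = 0.034). The call was lost in 6 of 10 fits without 1 tumor. Csf1r, the receptor that keeps macrophages alive, went from 156 to 283 CPM in controls to 89.4 to 126 CPM after 6 Gy (-1.07, SE 0.21, 0.005), and Apoe fell by 1.03 (0.014). Retnla, made by alternatively activated macrophages, had the largest fall among called genes without overlap whose log2 CPM averaged at least 1. It was at 28.8, 28.2, 20.8, 1.40 and 0.522 CPM in controls and 0.153, 0.0148, 0.102, 0.150 and 0.130 CPM after 6 Gy (-7.14, SE 1.42, 0.006). Of 17 neutrophil genes 0 were called (3 higher at an unadjusted p under 0.05, and 1 in DESeq2), and the summed level was 355 to 540 CPM in 4 irradiated tumors and 1736 CPM in replicate 1, against 462 to 646 CPM in controls.

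Of 19 dendritic cell genes 4 fell and 0 rose, with a median of -0.99 (1 without 6 Gy replicate 2, 2 without 6 Gy replicate 3 or 5 or control replicate 2 or 4, 6 without 6 Gy replicate 1, 8 with the 10 compared tumors alone). Clec10a, a lectin of conventional dendritic cells and macrophages, was at 2.79 to 21.7 CPM in controls and 1.46 to 2.59 CPM after 6 Gy (-2.68, SE 0.56, adjusted p = 0.0086). Zbtb46 fell by 0.68 (0.025) and Clec9a by 1.57 (0.049), and both lost the call with housekeeping scaling and in 5 and 9 of 10 fits without 1 tumor. The mast cell receptor gene Kit was at 8.02 to 10.5 CPM in controls and 2.95 to 5.73 CPM after 6 Gy (-1.24, SE 0.21, 0.0022). Of 13 adipocyte genes 2 fell, Fabp4 from 8.95 to 30.9 CPM to 2.21 to 5.36 CPM (-2.38, SE 0.46, 0.005) and Pparg by 1.97 (0.021). Of 24 T cell genes the 1 that fell was Thy1, which fibroblasts also express, and 23 of 24 had a negative log2 fold change. Over all genes tested 4.1% fell. Cd8a was at 0.366 to 2.82 CPM in controls and 0.0821 to 2.60 CPM after 6 Gy (-0.63, SE 1.06, 0.76), with the highest irradiated value in replicate 1.

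Genes of the carcinoma cells and of several tissues were not called. Of 19 tumor epithelium genes 0 were called (2 higher at an unadjusted p under 0.05, and 1 in DESeq2), with a median of 0.23, and Krt8 and Krt18 gave 0.20 and 0.15 (SE 0.19 each). Skeletal muscle, skin, Schwann cell, blood and B cell lists had 0 genes called, as did those of hypoxia and glycolysis, cholesterol synthesis and immediate early genes. At an unadjusted p under 0.05 these 8 lists held 3 higher and 10 lower genes, and DESeq2 called 0 higher and 4 lower. Il10 and Ptgs2, the gene of COX2, gave 0.74 and 0.49 (SE 0.51 and 0.23, adjusted p = 0.40 and 0.20), with groups that overlap.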

How the data were processed

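Total RNA of 94 4T1 tumors was sequenced, and the authors deposited 1 table of expected counts for 49080 genes, given to 1 decimal and not scaled to depth. Per the labels and the study's methods, adapters were cut with cutadapt and reads were handled in Partek software. The STAR aligner, Partek 11.0.24.0328 and the mm10 build are also named in the submitters' processing notes, with no role given, and the counting tool and gene annotation are not given in the sources used here. Groups and replicate numbers come from the sample titles.

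Expected counts were rounded, and edgeR 4.0.16 under R 4.3.3 was used (filterByExpr, TMM, trended dispersion, quasi-likelihood F test, Benjamini-Hochberg over all genes tested). The 4 groups of day 3 entered 1 fit, in which 6 Gy was contrasted with control. Differences between days came from 1 fit of 29 tumors. SE is the log2 fold change over the square root of F. Levels are CPM with TMM library sizes. DESeq2 1.42.0 and other scalings, filters and sample sets served as alternatives. Library measures were compared with exact permutation tests (252 splits). Fits were tested on simulated data.

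Gene lists and comparisons were chosen with earlier results of these data known. The genes named are the 15 with the greatest called fold change up and the 15 down (mean log2 CPM at least 1, groups apart), up to 6 called genes of each list by p, the 2 most abundant of lists without a call, 15 fixed genes, and the 10 smallest p of those that differed between days. The 2-cell stage families were added after their values were seen. Promoters and gene positions are from RefSeq and GENCODE tables of GRCm38 (mm10). Some genes that the rule names are given only within the counts of their lists, and 1 was left out and is not reported here.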

Additional observations from a re-analysis of the deposited data

Results flagged for a closer look

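Among 232 groups of 5 values, 29 held a tumor set far from the other 4 by Dixon's criterion, which chance alone meets in about 1 of 20 groups. 12 of the 29 were in 6 Gy replicate 1, which held the highest Rsad2 (187 CPM), Ifi27l2a (117 CPM), Scarna10 (1466 CPM), S100a9 (690 CPM), Hbb-bs (166 CPM), Cd274 (169 CPM), Cd8a (2.60 CPM), Ifng (1.53 CPM), Cdkn1a (51.2 CPM), Car4 (2.77 CPM) and mitochondrial share (4.64%), and the lowest Col6a2 (88.3 CPM). Control replicate 4 held the lowest Irf7 (39.9 CPM), Ddx58 (59.1 CPM), Dhx58 (14.9 CPM), Eif2ak2 (86.0 CPM) and Trim30a (36.4 CPM), all interferon-stimulated genes. Control replicate 5 held the lowest Igf1 (14.6 CPM) and Serpina3n (7.40 CPM). In 6 Gy replicate 2, Cxcl12 (3.79 CPM) and Serpina3n (1.58 CPM) were low and Epcam (434 CPM) and Zxda (0.429 CPM) were high. In 6 Gy replicate 4, Cmpk2 (46.4 CPM) and Ddb2 (17.2 CPM) were low and Myh11 (17.7 CPM) and Npas2 (1.11 CPM) were high. 6 Gy replicate 5 held the highest Cgas (20.6 CPM) and Tcstv1 (1.82 CPM).

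The change after 6 Gy on day 3 differed from that on day 1 for 19 of the named genes, each value being a difference of log2 fold changes in edgeR: Cmpk2 (2.30), Ddx58 (0.80), Ddx60 (1.66), Ifih1 (1.07), Ifit1 (2.06), Ifit1bl2 (2.06), Ifit2 (1.34), Ifit3 (2.34), Ifit3b (2.60), Irf7 (1.68), Mx1 (1.57), Oasl1 (2.21), Rsad2 (2.56), Samd9l (1.07), Trim30a (1.73), Usp17la (2.66), Usp17lb (3.91), Usp17lc (6.41) and Usp18 (1.67). It differed from that on day 7 for 16: Ddx58 (0.81), Ddx60 (1.43), Ifi27l2a (2.16), Ifit1 (1.71), Ifit2 (1.45), Ifit3 (2.12), Ifit3b (2.18), Irf7 (1.75), Lgals9 (1.13), Ly6e (1.47), Mx1 (1.64), Oasl1 (1.53), Pdgfrb (0.76), Samd9l (1.03), Sfrp2 (3.29) and Usp18 (1.52). Both sets of differences rest on the same control and 6 Gy tumors of day 3.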

How the results depend on the processing

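Counts of genes higher and lower on day 3 were 463 and 945 at an unadjusted p under 0.05 with a 2-fold change, 1189 and 862 with RLE size factors, 393 and 701 with housekeeping scaling, 381 and 549 without the filter on low counts, 1744 and 1355 in DESeq2, and 1296 and 1488 with the 10 compared tumors alone. Leaving out 1 tumor gave 340 to 844 higher and 406 to 959 lower. The lists, added after the data were seen, ranged over these fits from 29 to 46 for antiviral, 3 to 6 for RNA sensing, 2 to 5 for macrophage, 1 to 6 for dendritic, 9 to 14 for fibroblast, 15 to 16 for endothelial and 17 to 19 for 2-cell stage genes. RNA sensing gave 3 with housekeeping scaling, 3 without the filter and 8 in DESeq2. Macrophage genes gave 9 in DESeq2, 9 with 10 tumors and 8 with all 94 tumors. Dendritic genes gave 2 without the filter, 7 in DESeq2, 8 with 10 tumors and 8 with all 94, and fibroblast genes 8 with all 94. Where these values moved, the cause was not tested.

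Against day 1, DESeq2 called 94 higher, 13 lower and 28 antiviral genes, while lower genes numbered 0 with housekeeping scaling, 0 without the filter and 1 with all 94 tumors. Against day 7, housekeeping scaling left 1 higher gene, which was antiviral (1), DESeq2 called 120 higher, 9 lower and 43 antiviral genes, and all 94 tumors gave 22 higher. Without 1 tumor, the day 1 difference gave 15 to 45 higher, 0 to 4 lower and 8 to 22 antiviral genes, and the day 7 difference 10 to 47, 0 to 1 and 6 to 25.

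Correlations between same-numbered tumors were -0.06, 0.27, -0.40, 0.55 and 0.05, and whether the numbers pair tumors was not tested. Control replicate 4 matched its own number best (0.55), while control replicates 1, 2, 3 and 5 each matched another number best. The main fit treated tumors as unpaired. With a replicate block, 817 genes were higher and 889 lower on day 3, 1 was lower against day 1, and 22 genes and 13 antiviral genes were higher against day 7.

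Signs turned only among genes that were not called. Gbp2 gave 0.00711 with RLE size factors, 0.00722 in DESeq2 and 0.13 with the replicate block. Without 1 tumor, log2 fold changes ran from -0.45 to 0.58 for Gbp2, -1.48 to 0.092 for Hbb-bs, -1.05 to 2.33 for S100a9, -0.17 to 0.012 for Cgas, -2.24 to 0.10 for Cd8a and -0.64 to 0.78 for Cd274. Counts limit the interferon ligands and 2-cell stage genes, most of which had few reads in controls.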
